A study of Homo sapiens and Mus musculus with 16 samples.

Results

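The transcription factors that set up the pancreas are encoded at loci that carried 297 of the 364071 accessible regions listed in this ATAC-seq series. ATAC-seq (assay for transposase-accessible chromatin with sequencing) marks DNA that is open to a transposase, and a region is a stretch called as open. The 10 genes were PDX1, PTF1A, SOX9, ONECUT1, ONECUT2, NR5A2, RBPJL, NKX6-1, PROX1 and BHLHA15 with their mouse orthologs, of 20020 annotated protein-coding genes in human and 21924 in mouse. They were chosen by name, and a region belonged to a locus where it overlapped the gene body or the 50 kb on either side of it. The control list held 86 such regions of 118107, the HNF4G-KO list 70 of 97047, the primary tumor list 62 of 68074 and the mets list 79 of 80843. The windows of the 10 genes had no region in common, so each region was counted at a single locus.

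The study profiled 16 samples in 4 groups of 4 replicates, and 1 region list stands for each group. HPAF-II is an established human pancreatic adenocarcinoma line, studied here as control (Cas9), which received Cas9 and carries the WT genotype label, and as HNF4G-KO, labeled KO and made with CRISPR guides against the nuclear receptor gene HNF4G. The study describes its HNF4G-KO cells as pooled clones, called knockouts and said to carry heterozygotic frameshift edits. Such edits cannot be checked in a list of open regions. The KPC lines were untreated mouse pancreatic cancer cell lines, also labeled WT for genotype, 1 derived from a primary tumor and 1 from matched liver mets of the autochthonous KPC model. All 4 groups were cultured cancer cells, so no group stands for normal pancreas, and each KPC condition is 1 line. With 1 list per group there is no spread between replicates, and no difference given here has a replicate check. The words rose and fell describe listed percentiles and are not the outcome of a test.

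These genes divide into roles that recur below. PDX1, SOX9, ONECUT1 and ONECUT2 act in the progenitors of the embryonic pancreas and, for SOX9 and the ONECUT factors, in duct cells. PTF1A is the basic helix-loop-helix factor that commits cells to the acinar fate. RBPJL is its partner in the adult acinar complex, while NR5A2 and BHLHA15 (also called MIST1) help to run the secretory program of acinar cells. NKX6-1 specifies and maintains beta cells, and PROX1 is a homeobox factor of early pancreas and liver buds. Pancreatic ductal tumors commonly keep parts of the progenitor and duct programs and lose the acinar program.

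The sequences of 6 regions are shown as examples of regions that differed between lists. They are 4 of the strongest regions found in 1 list of a pair and, of the regions found in both lists, the largest fall in HPAF-II and the region with the second-largest rise in KPC. Each is the plus strand, 5′ to 3′, of the 300 bases at the center of the region, or of the whole region of 274 bases at Onecut1, read from the human build hg38 or the mouse build mm10. Capitals mark matches to 8 consensus sequences that were searched. The only one found in these 6 stretches was TGANTCA, a loose form of the AP-1 site of the JUN and FOS families with any base at the center.
Nr5a2 intron, mets-only, chr1:136910264-136910563: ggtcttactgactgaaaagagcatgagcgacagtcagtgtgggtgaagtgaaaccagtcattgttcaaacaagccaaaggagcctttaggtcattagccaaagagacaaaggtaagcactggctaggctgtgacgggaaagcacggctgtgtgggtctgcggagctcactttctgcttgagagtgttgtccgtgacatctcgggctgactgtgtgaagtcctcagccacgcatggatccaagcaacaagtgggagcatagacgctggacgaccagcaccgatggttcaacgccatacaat
Nr5a2 intron, mets-only, chr1:136915446-136915745: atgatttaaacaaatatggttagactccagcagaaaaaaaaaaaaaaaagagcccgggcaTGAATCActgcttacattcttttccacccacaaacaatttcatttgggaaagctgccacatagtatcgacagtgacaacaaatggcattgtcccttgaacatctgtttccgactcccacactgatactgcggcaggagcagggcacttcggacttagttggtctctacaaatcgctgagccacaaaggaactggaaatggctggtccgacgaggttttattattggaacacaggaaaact
Sox9 downstream, mets-only, chr11:112818803-112819102: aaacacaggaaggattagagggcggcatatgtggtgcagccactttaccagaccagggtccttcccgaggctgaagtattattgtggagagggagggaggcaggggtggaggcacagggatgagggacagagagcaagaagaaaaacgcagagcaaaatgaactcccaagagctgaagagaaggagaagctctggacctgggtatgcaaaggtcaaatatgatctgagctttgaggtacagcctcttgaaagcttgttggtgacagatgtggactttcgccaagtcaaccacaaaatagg
Onecut1 downstream, rose from primary tumor to mets, chr9:74897457-74897730: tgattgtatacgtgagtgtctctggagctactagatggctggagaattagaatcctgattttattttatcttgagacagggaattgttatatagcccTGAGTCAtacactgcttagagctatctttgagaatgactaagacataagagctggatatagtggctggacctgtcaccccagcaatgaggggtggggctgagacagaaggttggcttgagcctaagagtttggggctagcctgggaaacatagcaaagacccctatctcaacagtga
PROX1 upstream, control-only, chr1:213947329-213947628: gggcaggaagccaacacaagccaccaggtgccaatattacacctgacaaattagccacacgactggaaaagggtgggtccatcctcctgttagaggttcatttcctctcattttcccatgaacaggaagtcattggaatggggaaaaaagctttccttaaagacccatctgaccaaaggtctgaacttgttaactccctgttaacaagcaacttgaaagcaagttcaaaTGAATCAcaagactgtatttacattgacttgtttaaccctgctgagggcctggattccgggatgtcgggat
NR5A2 downstream, fell from control to HNF4G-KO, chr1:200206384-200206683: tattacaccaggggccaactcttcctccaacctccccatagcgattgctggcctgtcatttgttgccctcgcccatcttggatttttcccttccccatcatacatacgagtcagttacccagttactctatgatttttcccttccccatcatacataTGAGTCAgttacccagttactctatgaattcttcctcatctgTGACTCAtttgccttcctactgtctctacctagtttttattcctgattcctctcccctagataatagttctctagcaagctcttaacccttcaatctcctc
The stretch downstream of NR5A2 held 2 matches to the AP-1 consensus. The second Nr5a2 intron, Onecut1 and PROX1 stretches held 1 each, and the first Nr5a2 intron and Sox9 stretches held none of the consensus sequences searched. The matches of the second Nr5a2 intron and PROX1 stretches read TGAATCA, and the others read TGAGTCA or TGACTCA.

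The labels were checked against marker genes, read as a region within 1 kb of a start site. All 6 epithelial markers had one in both HPAF-II lists and 5 of 6 in both KPC lists, where CLDN7 lacked one. Of 5 duct markers, 2 had a start-site region in each HPAF-II list (KRT7 and MUC1) and all 5 in each KPC list. Of 8 acinar markers, which encode digestive enzymes and their partners, 4 had one in each HPAF-II list and 1 in each KPC list. Endocrine hormone markers had 2 of 6 in control and 0 of 6 in the other 3 lists. Hepatocyte markers, of the main cell type of the host liver, had 2 of 4 in each HPAF-II list, 1 of 3 in the primary tumor and 0 of 3 in mets. Leukocyte markers had 2, 2, 1 and 1 of 4, endothelial markers 0, 0, 2 and 2 of 3, and fibroblast markers 3, 3, 1 and 1 of 4 in control, HNF4G-KO, primary tumor and mets. An open start site does not show that a gene is transcribed, and the part of other cell types in the results was not tested.

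A region within 1 kb of a start site of the gene was listed for 7 of the 10 genes in control, 8 in HNF4G-KO, 5 in the primary tumor and 5 in mets. Among all protein-coding genes the share was 74.9% in control, 72.8% in HNF4G-KO, 57.9% in the primary tumor and 59% in mets, so these counts were close to the background of each list. The strength of a region is given as its score percentile, the position of the authors' score among all regions of the same list, with 100 the strongest. The scale of the score is not given in the sources used here, so percentiles rank regions and are not a measured amount of DNA.

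PDX1 and SOX9 were the 2 genes with a start-site region above the middle of every list. The PDX1 region (chr13:27919782-27921573 in control, hg38) lay at percentile 92.6 in control, 87.6 in HNF4G-KO, 78.0 in the primary tumor and 77.0 in mets. It was 1792 bp wide in control and 1811 bp in HNF4G-KO, against 580 and 440 bp at mouse Pdx1. The SOX9 region lay at 85.4, 80.3, 55.4 and 68.8 in the same order. At ONECUT2 the percentiles were 87.8 in control, 87.0 in HNF4G-KO, 30.4 in the primary tumor and 54.1 in mets. The human ONECUT2 values were nearly equal, and the mouse ones were farther apart, with mets the higher. ONECUT1 had a weak region in both HPAF-II lists, at 20.0 and 20.4, which lay about 10 kb inside the gene at the start of an annotated internal transcript. Mouse Onecut1 had no start-site region in the primary tumor, and a mets-only region spanned the main start site in mets at percentile 29.7.

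The 4 acinar factors differed from one another at their start sites. PTF1A had no start-site region in any of the 4 lists. NR5A2 had one in HNF4G-KO alone, a region of 200 bp at percentile 9.90 directly over the start (chr1:200027514-200027713). The nearest region in control began 1168 bp from a start site. Neither KPC list had a start-site region for Nr5a2. RBPJL had none in either HPAF-II list, where the region nearest to its start lay at the start site of the neighbor MATN4, but mouse Rbpjl had one at percentile 51.9 in the primary tumor and 67.6 in mets. BHLHA15 had one in both HPAF-II lists, at 49.7 in control and 51.4 in HNF4G-KO. In KPC the Bhlha15 start-site region was at percentile 2.42 and tumor-only, and mets had none.

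The beta cell factor NKX6-1 had one of the strongest start-site regions of the 10 genes in HPAF-II. It lay at percentile 88.4 in control (chr4:84498651-84499722) and 87.6 in HNF4G-KO. Mouse Nkx6-1 had no start-site region in either KPC list. PROX1 had a region at percentile 48.7 in control and 29.5 in HNF4G-KO, placed about 5 kb inside the gene, and none in either KPC list. HPAF-II and KPC differ in species and in tumor of origin, and these cannot be told apart here.

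**Figure D1:**
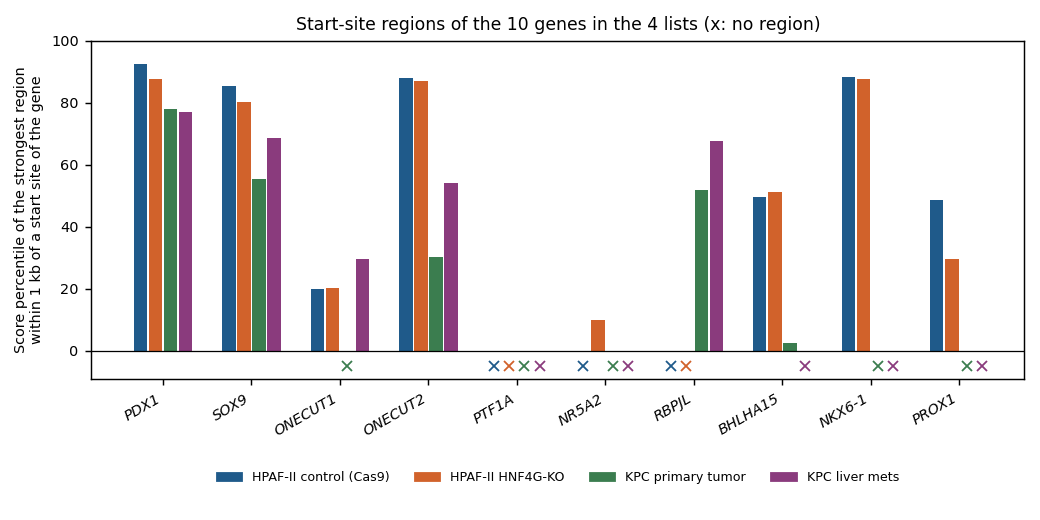
Score percentile (vertical axis, 0 to 100) of the strongest region within 1 kb of a start site of each gene, with 1 bar per list and a cross where the list held no such region. PDX1 and SOX9 have bars in all 4 lists, PTF1A has none, and NKX6-1 stands at 88.4 and 87.6 in the HPAF-II lists with crosses in both KPC lists.

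In each pair, regions were split into those with a counterpart in the other list (an overlap of at least 1 bp) and those in 1 list alone. At the 10 loci 20 of 86 control regions were control-only (23.3%, 95% Wilson interval 15.6 to 33.2), beside 25% of the whole control list. In HNF4G-KO 4 of 70 were KO-only (5.71%, 2.24 to 13.8), beside 6.76%. In the primary tumor 5 of 62 were tumor-only (8.06%, 3.49 to 17.5), beside 8.51%. In mets 20 of 79 were mets-only (25.3%, 17.0 to 35.9), beside 20.2%. Each interval holds the share of its own list, so the loci as a group did not stand apart from the background. With lists cut to the same number of regions the counts were 12 of 75 control-only, 7 of 70 KO-only, 8 of 62 tumor-only and 9 of 65 mets-only. The 2 lists of a pair were then closer to each other. Closer to the genes, within 10 kb, 13 of 32 mets regions were mets-only (40.6%, 25.5 to 57.7), beside 17.8% of all mets regions within 10 kb of a coding gene. Of these 13, 5 were at Nr5a2 and 4 at Onecut1, and without Nr5a2 the count was 8 of 27 (29.6%). The intervals cover counting error only, and neighboring regions of a locus are not independent. Read depth is unknown, and a list called with more power holds more weak regions.

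Regions in 1 list were mostly weak ones. The median percentile of control-only regions was 18.8, against 55.2 for the regions of the same loci found in both lists. For KO-only regions it was 8.51 against 49.98, for tumor-only regions 3.64 against 48.5, and for mets-only regions 13.6 against 50.3. The one-list share of each whole list, taken in 10 bins of score percentile and applied to the members, came to 21.6 control-only, 3.93 KO-only, 5.75 tumor-only and 18.3 mets-only regions. The observed counts of 20, 4, 5 and 20 were within 2 of each of these.

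Nr5a2 was the locus that differed most between the KPC lists in number of regions. NR5A2 is an orphan nuclear receptor (also called LRH-1) of acinar and liver cells. The primary tumor list had 0 regions within 50 kb of the gene and the mets list had 5, all in introns and all mets-only. Their percentiles were 78.0 (chr1:136910167-136910659), 77.4 (chr1:136915363-136915827), 16.4, 13.4 and 3.91. The 2 strong ones lay 50035 and 44853 bp into the gene, far from its start, and their central sequences are printed above. Of the 16355 mets-only regions of the whole list 209 had a higher percentile than the first (1.28%) and 226 than the second (1.38%). In the range from percentile 70 to 80, 3.03% of all mets regions were mets-only. That share was 49.2% from 10 to 20 and 54.1% below 10, the bins of the weaker regions here. Over the whole mets list it was 20.2%. Of 21938 windows of mouse protein-coding genes, 57 had 0 regions in the primary tumor and at least 5 in mets, Nr5a2 among them, and 1 had 0 in mets and at least 5 in the primary tumor. Without the Nr5a2 locus the mets-only share fell to 15 of 74 (20.3%).

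Human NR5A2 had most of its regions in both HPAF-II lists. It had 18 regions in control, 1 of them control-only, and 17 in HNF4G-KO, 1 of them KO-only. Over the whole lists 25% of control regions were control-only and 6.76% of HNF4G-KO regions KO-only. The gene is long, and per 100 kb its window stood at the 53.4th percentile of coding genes in control. The strongest region was an intronic region (chr1:200115397-200116004) at percentile 87.0 in control and 84.9 in HNF4G-KO. The largest fall at any of the 10 loci was here, at a region about 179 kb past the start (chr1:200206380-200206687) that went from percentile 67.0 to 8.54. An intronic region at chr1:200150660-200151049 went the other way, from 51.8 to 66.0. Of the 17 regions of control with a counterpart 14 had a lower percentile in HNF4G-KO, beside 70% of the regions shared over the whole genome. Ranked within the shared set, 5 of the 17 fell and 12 rose, so the direction turned with the ranking. The median was then 3.20, beside 0.68 over all shared HPAF-II regions. A further rise, from 22.3 to 59.3 at chr1:200029051-200029265, came from 2 neighboring control regions that met a single wider region in HNF4G-KO, the other of which had percentile 67.2.

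At mouse Onecut1 the mets list held more regions at the start and higher percentiles downstream. ONECUT1 (HNF6) is a cut-homeobox factor of progenitors and ducts. The primary tumor had 6 regions, all intergenic and downstream of the gene, and mets had 9. Of these, 4 were mets-only and clustered in the first 6.5 kb of the gene, at percentiles 29.7, 17.6, 10.5 and 2.86. Over the whole mets list 20.2% of regions were mets-only. That share was 54.1% below percentile 10, 49.2% from 10 to 20 and 38.3% from 20 to 30, the range of these 4. The 5 regions with a counterpart all had a higher percentile in mets. Over all shared KPC regions 35.1% fell. The 5 went from 38.7 to 70.8, from 41.3 to 46.5, from 35.6 to 64.3, from 51.3 to 73.1 and from 32.8 to 47.1, with a median change of 21.8 percentile points beside 3.67 over all shared KPC regions. When ranked within the shared set, 4 of the 5 rose and the median was 19.8, beside 0.99 over all shared KPC regions. The tumor-only region here was weak, at percentile 4.65.

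In HPAF-II the ONECUT1 locus had fewer regions in HNF4G-KO than in control, as did the list as a whole. Control had 10, 5 of them control-only at percentiles of 5.44 to 19.7, and HNF4G-KO had 5, all shared. Over the whole control list 25% of regions were control-only. That share was 75.5% below percentile 10 and 62.0% from 10 to 20, the range of these 5. Of the 5 shared regions 4 had a lower percentile in HNF4G-KO, with a median change of -10.1, beside 70% and -4.65 over all shared HPAF-II regions. Within the shared set 2 fell and 3 rose, with a median of 1.79 beside 0.68, so here the direction depended on the ranking. Leaving ONECUT1 out lowered the control-only count of all loci from 20 to 15 (19.7%).

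**Figure D2:**
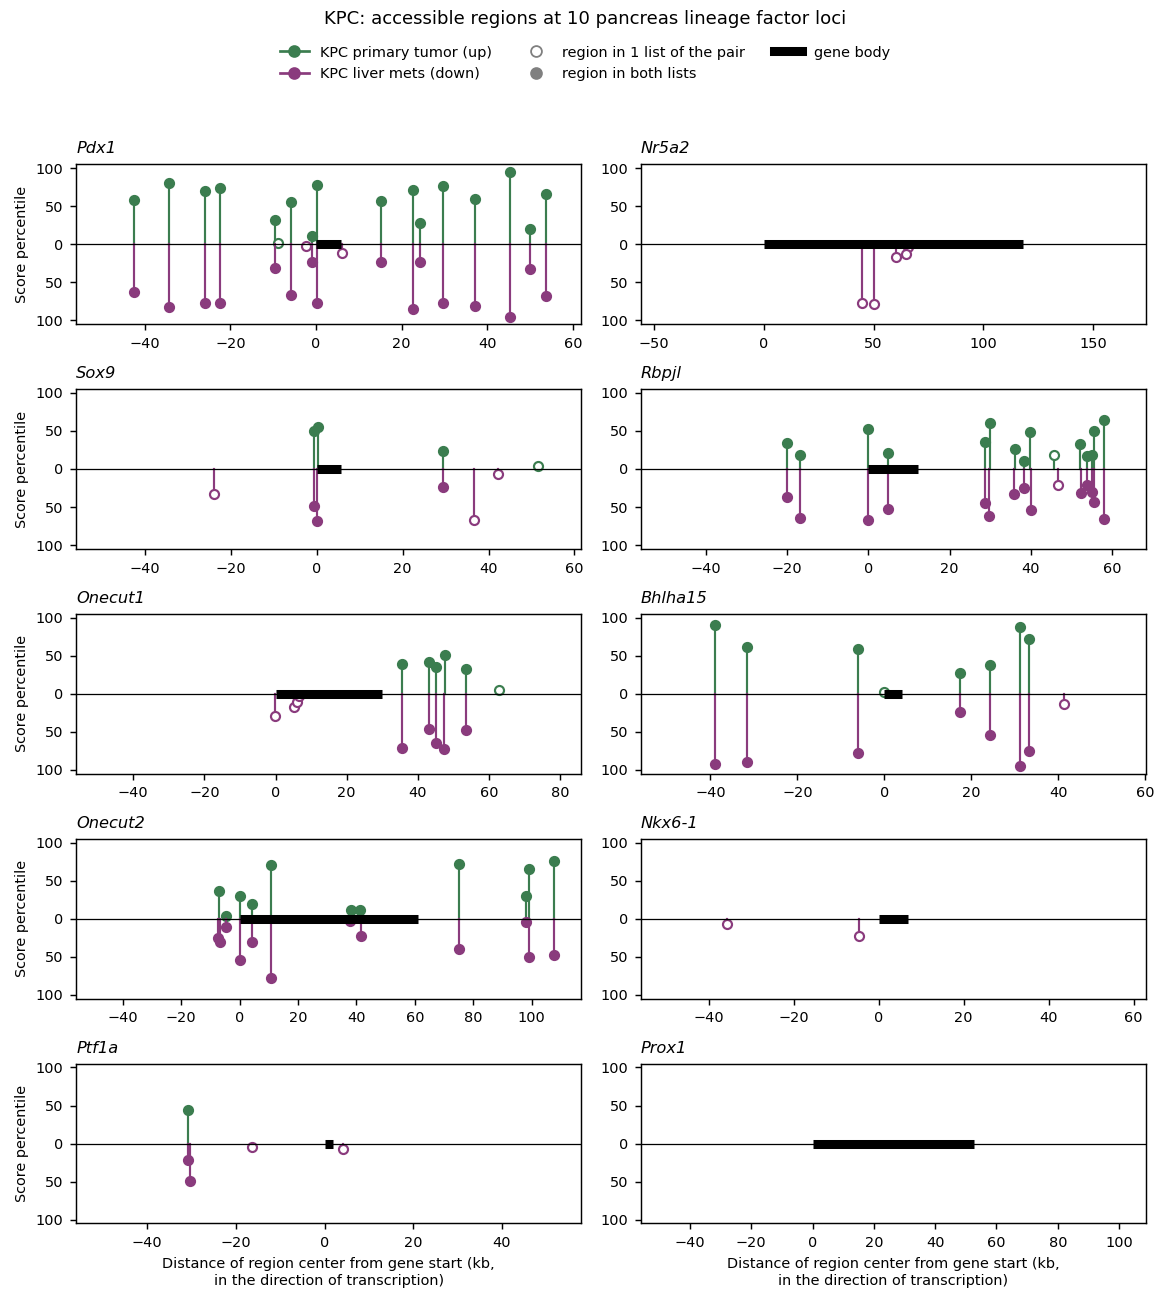
Regions at the 10 mouse loci by distance of their center from the gene start (horizontal axis, kb) and score percentile (vertical axis), with primary tumor upward and mets downward. Open circles are regions in 1 list: they make up all 5 regions within Nr5a2 and the 4 at the start of Onecut1, and Prox1 has no region.

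ONECUT2, the paralog of ONECUT1, had each of its regions in both lists of a pair. It had 8 regions in control, 9 in HNF4G-KO, 11 in the primary tumor and 12 in mets. Over the whole lists 25%, 6.76%, 8.51% and 20.2% of regions were in 1 list, in the same order. Its strongest HPAF-II region was intergenic, downstream of the gene (chr18:57497408-57498421), at percentile 93.8 in control. In HNF4G-KO it was split into 2 regions, at 61.4 and 80.4. On the whole lists 7 of 8 ONECUT2 regions had a lower percentile in HNF4G-KO, with a median change of -12.2 points, beside 70% and -4.65 over all shared HPAF-II regions. Within the shared set 5 of 8 fell, with a median of -4.27 beside 0.68. At mouse Onecut2 the start-site region rose while 2 of the 3 largest falls of the KPC pair lay downstream. Those were chr18:64414883-64415304, from 71.4 to 39.7, and chr18:64447548-64448055, from 76.5 to 47.1. In all 6 of the 11 tumor regions of Onecut2 fell and 5 rose, beside 35.1% of all shared KPC regions that fell.

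PDX1 shares its neighborhood with CDX2, the intestinal homeobox gene, so part of its regions lie at other genes. HPAF-II had 7 regions in control, 1 of them control-only (beside 25% of the whole control list), and 6 in HNF4G-KO. Of the 7, 5 were at start sites, 2 of which belonged to CDX2. The distal region between PDX1 and CDX2 (chr13:27960320-27961281 in control) lay at 85.2 in control and 85.6 in HNF4G-KO, and in HNF4G-KO it was the second-strongest of the distal regions of the loci, those more than 1 kb from any start site. A region at chr13:27944029-27944358 went from 11.3 to 42.0. Mouse Pdx1 was denser, with 17 regions in the primary tumor and 18 in mets, more per 100 kb than 98.1% of protein-coding genes in each list. Human PDX1 stood at the 47.8th percentile of that density in control. The strongest region at the mouse locus, in an exon of the neighbor Urad (chr5:147314821-147315740), was at 94.2 in the primary tumor and 95.2 in mets. One region 15 kb past the start of Pdx1 (chr5:147285015-147285387) fell from 57.0 to 23.0.

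SOX9, a factor of progenitors and ducts, differed between lists in outlying regions and had its start-site region in all 4. In HPAF-II it had 7 regions in control, 2 of them control-only, and 5 in HNF4G-KO. The stronger control-only region lay about 10 kb upstream at the start site of SOX9-AS1 (chr17:72110625-72111185, percentile 42.6). Of the 29475 control-only regions 7.98% had a higher percentile. In KPC Sox9 had 4 regions in the primary tumor, 1 of them tumor-only at 3.64, and 6 in mets, 3 of them mets-only. Over the whole lists 8.51% of primary tumor regions were tumor-only and 20.2% of mets regions mets-only. The mets-only share was 54.1% below percentile 10, 24.0% from 30 to 40 and 5.98% from 60 to 70, the bins of these 3. The strongest mets-only one lay 36.7 kb past the start of the gene (chr11:112818615-112819289, percentile 66.9, sequence above), and 3.31% of mets-only regions had a higher percentile.

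RBPJL, the acinar partner of PTF1A, sat in the densest window of the 10 in HPAF-II, above 97.7% of protein-coding genes in control and 98.2% in HNF4G-KO. It had 19 regions in control, 18 in HNF4G-KO and 15 in each KPC list. The window also holds other genes, and 4 of the 19 in control lay at start sites of other coding genes (MATN4, SDC4 and SYS1). A region 23 kb upstream (chr20:45283302-45284117) was strong in both HPAF-II lists, at 87.5 and 86.9. One between SDC4 and SYS1 (chr20:45359800-45360285) fell from 66.1 to 40.8. Within the shared set 15 of the 18 with a counterpart rose, with a median of 8.05 points beside 0.68 over all shared HPAF-II regions. On the whole lists 10 rose and 8 fell. In KPC 2 of 14 Rbpjl regions fell and 12 rose on the whole lists, beside 35.1% of all shared KPC regions that fell. Within the shared set 5 fell and 9 rose, with a median of 1.08 beside 0.99 over all shared KPC regions, so the locus lay near the background. The largest rise of the pair was upstream of Rbpjl (chr2:164386077-164386583), from 18.9 to 64.3.

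BHLHA15 had 7 regions in each HPAF-II list and 8 in each KPC list, and in HPAF-II the strongest lay at a neighbor. The start-site region of TECPR1, 40 kb downstream, was at percentile 97.9 in control and 99.6 in HNF4G-KO. Nearby, at another TECPR1 start, was the second-strongest control-only region of the loci (chr7:98245579-98246108, percentile 59.0). The strongest KO-only region was also there (chr7:98250862-98251084, percentile 24.0), and a KO-only region 8.7 kb upstream of BHLHA15 was at 7.12. The former lay just beside the strong TECPR1 region, which began at base 98251270 in control and 98251275 in HNF4G-KO. With a gap of up to 500 bp counted as shared, 3 KO-only regions remained at the 10 loci. A region in an intron of LMTK2 (chr7:98168593-98168873) fell from 72.5 to 38.7. Without the BHLHA15 locus 2 of 63 regions were KO-only (3.17%). Over the whole lists 25% of control regions were control-only and 6.76% of HNF4G-KO regions KO-only. The KO-only share was 10.8% from percentile 20 to 30 and 31.1% below 10, the bins of the 2 KO-only regions here. The control-only share was 6.95% from percentile 50 to 60. In KPC 2 distal regions of Bhlha15 were at 90.0 and 87.7 in the primary tumor and at 92.0 and 94.8 in mets. A further one upstream (chr5:144158504-144159045) rose from 61.7 to 89.9.

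PTF1A, NKX6-1 and PROX1 had few regions, and in control most of these were control-only. Over the whole lists 25% of control, 6.76% of HNF4G-KO, 8.51% of primary tumor and 20.2% of mets regions were in 1 list. The share was higher among weak regions, with 62.0% of control regions from percentile 10 to 20 and 54.1% of mets regions below 10. PTF1A had 3 in control at percentiles 27.3, 14.6 and 5.44, and 1 in HNF4G-KO at 6.36, and no region was shared. Mouse Ptf1a had 1 in the primary tumor at 44.2, about 31 kb upstream, which met 2 regions in mets at 49.1 and 21.7, and 2 mets-only regions at 7.15 and 4.32. NKX6-1 had 2 control-only regions at 39.3 and 30.3 besides its start site. Mouse Nkx6-1 had 0 regions in the primary tumor and 2 mets-only regions at 22.4 and 7.15. PROX1 had 4 regions in control, 3 of them control-only. The strongest, in an intron of PROX1-AS1 about 36 kb upstream (chr1:213947173-213947784), was the strongest control-only region at the 10 loci, at percentile 61.6. Of the 29475 control-only regions 0.767% had a higher percentile. Mouse Prox1 had no region in either list, and 14.8% of 21938 coding gene windows had none in both.

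**Figure D3:**
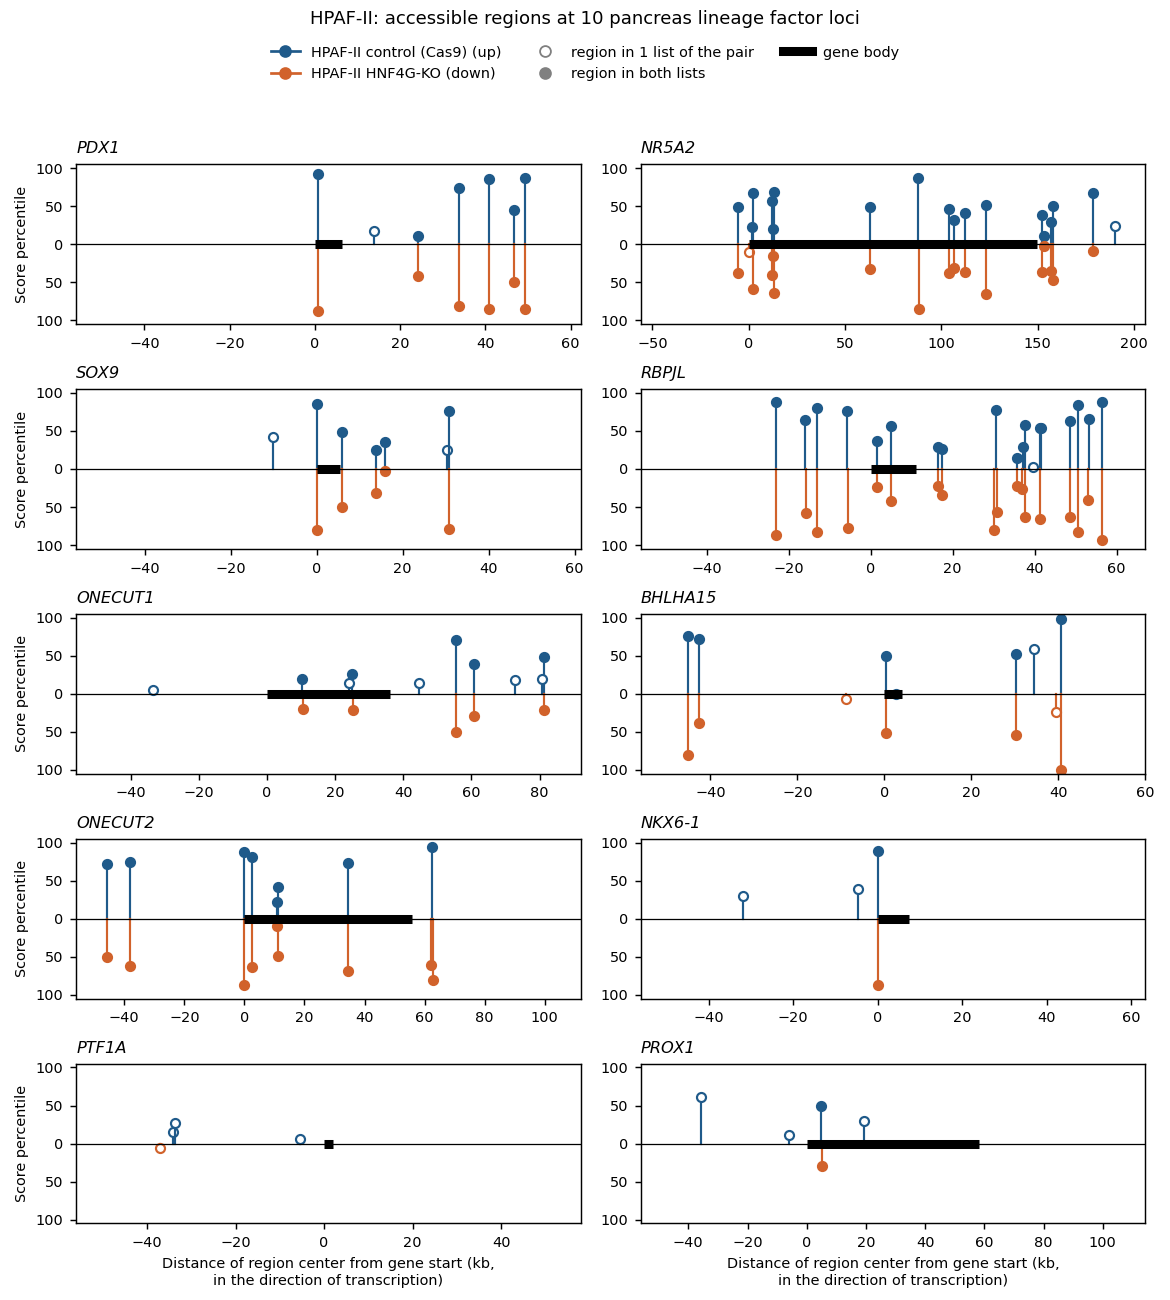
Regions at the 10 human loci by distance of their center from the gene start (horizontal axis, kb) and score percentile (vertical axis), with control (Cas9) upward and HNF4G-KO downward. Filled circles, which are regions in both lists, dominate at NR5A2, RBPJL and ONECUT2, and open circles, regions in 1 list, make up all of PTF1A and 3 of the 4 control regions of PROX1.

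Regions found in both lists shifted little as a group. In HPAF-II 40 of 66 had a lower percentile in HNF4G-KO and 26 a higher one, with a median change of -1.69 points (quartiles -10.1 and 2.24), beside a median of -4.65 over all 88632 shared regions, of which 70% fell. A list with fewer weak regions lowers the percentile of the rest, so shared regions were also ranked by themselves. Then 20 fell and 46 rose, with a median of 3.55 beside 0.68 over all shared regions. The direction of the median turned, and in both rankings the loci lay above the whole list. In KPC 14 of 57 fell and 43 rose, with a median of 5.21 beside 3.67 over 62280 shared regions, of which 35.1% fell. Ranked by themselves 23 fell and 34 rose, with a median of 0.90 beside 0.99. The share of all shared regions that fell in this ranking is not given here, so its counts have only the medians beside them.

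**Figure D4:**
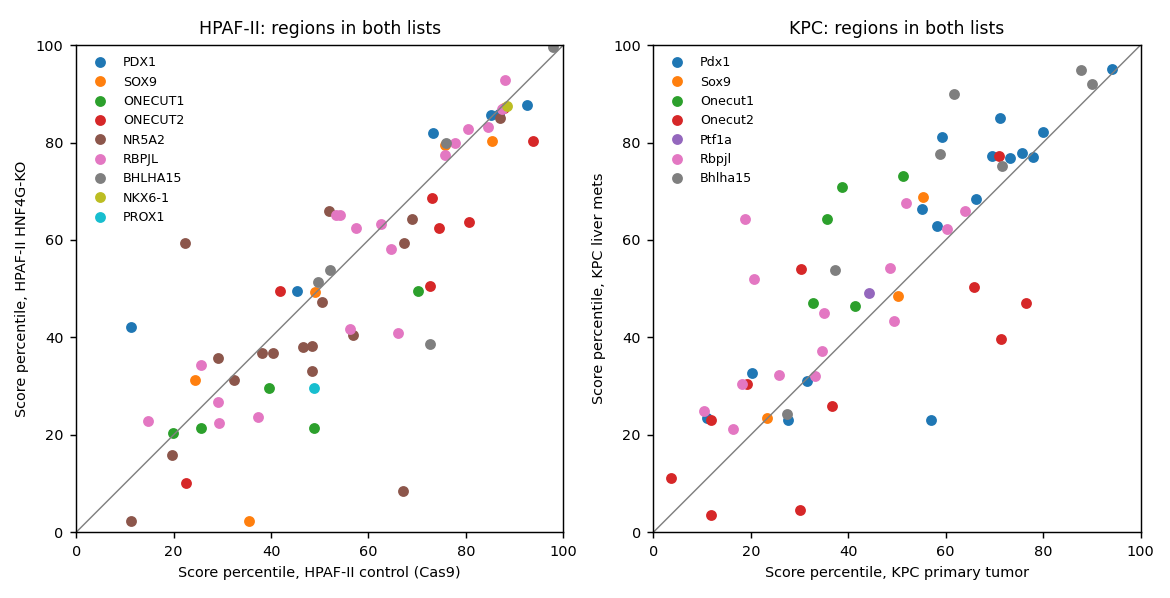
Score percentile of each region found in both lists of a pair, control (Cas9) against HNF4G-KO (left) and primary tumor against mets (right), colored by gene, with the line of equal percentiles. The 5 Onecut1 points lie above the line in KPC, and a single NR5A2 point, at 67.0 and 8.54, lies far below it in HPAF-II.

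The regions were placed much as the lists they came from. In control 21 of 86 lay within 1 kb of any start site (24.4%, beside 24.7% of the whole list), 32 in introns, 29 between genes and 4 in exons. In mets 19 of 79 lay at a start site (24.1%, beside 26.3%). The AP-1 consensus TGANTCA occurred in 35 of 86 control regions (40.7%, beside 39.1% of all control regions), 30 of 70 HNF4G-KO regions (42.9%, beside 39.2%), 27 of 62 primary tumor regions (43.5%, beside 46.0%) and 32 of 79 mets regions (40.5%, beside 43.7%). The HNF4 consensus CAAAGTCCA occurred in 1 control region, a weak control-only region at PTF1A, in 1 primary tumor region at Rbpjl, and in 0 regions of HNF4G-KO and mets, beside 1.28% to 1.60% of the whole lists. The FOXA consensus TGTTTAC, bound by the forkhead pioneer factors, was found in 8 of 86 control, 6 of 70 HNF4G-KO, 6 of 62 primary tumor and 9 of 79 mets regions (9.30%, 8.57%, 9.68% and 11.4%, beside 9.76%, 9.51%, 9.71% and 8.90% of the whole lists). The GATA consensus AGATAAG, bound by zinc finger factors such as GATA6, was found in 9, 5, 4 and 4 regions in the same order (10.5%, 7.14%, 6.45% and 5.06%, beside 6.63%, 6.44%, 8.05% and 6.90%). The intervals of these GATA shares hold the whole-list shares. For RBPJ, the Notch effector that RBPJL resembles, the consensus GTGGGAA was found in 9, 7, 6 and 6 (10.5%, 10.0%, 9.68% and 7.59%, beside 12.2%, 11.9%, 12.9% and 11.0%). Matches to ONECUT (TATTGATT) were 1 in each list, beside 1.18% to 2.52% of the whole lists. NR5A (TCAAGGTCA) had 1 in each HPAF-II list and 0 in KPC, beside 0.698% to 0.981%, and HNF1 had 0 in all 4, beside 0.0264% to 0.0432%. Both strands of the whole region were searched, the consensus sequences differ so that matches rarely overlap, and a match is not a bound site. TGANTCA left the central base free, so its counts include matches such as TGAATCA.

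Other pancreas factors, 25 genes chosen by role, gave a comparison for the 10. A start-site region was listed for 17 of them in control, 17 in HNF4G-KO, 14 in the primary tumor and 15 in mets. Over all protein-coding genes the share was 74.9%, 72.8%, 57.9% and 59% in the same order. The 9 duct and progenitor factors had 8, 8, 9 and 9, with FOXA2, SOX4 and HES1 among them in every list. The 4 acinar factors XBP1, NR0B2, GFI1 and TCF12 had one in each list, though Gfi1 was at percentile 3.10 in the primary tumor and 0.232 in mets. The 12 endocrine factors had 5, 5, 1 and 2, with MAFA among them in each list. In the windows of these 25 genes 81 of 305 control regions were control-only (26.6%), 18 of 250 KO-only (7.20%), 17 of 237 tumor-only (7.17%) and 34 of 263 mets-only (12.9%). The whole lists had 25%, 6.76%, 8.51% and 20.2% in the same order, and the 10 loci had 23.3%, 5.71%, 8.06% and 25.3%.

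Among genes with a same-symbol mouse gene, those nearest to a member by their start-site percentiles in the 4 lists (0 where no region was listed, 15741 genes compared) were named for the 8 members with a start-site region in at least 2 lists. They were ATP6V1C1, RPRD1A and MATR3 for PDX1, ZSCAN26, KIFC3 and UIMC1 for SOX9, CAPNS1, UCHL3 and DPH1 for ONECUT2, and CNTNAP2, VASH1 and PIEZO2 for ONECUT1. They were SNORC, KDF1 and LNX1 for NKX6-1, ALPK3, CCDC27 and CD80 for PROX1, USP50, MSANTD1 and VASN for RBPJL, and KLF15, PRSS8 and MKRN3 for BHLHA15. The closest pair was NKX6-1 and SNORC, at a distance of 0.303 percentile points, and the nearest gene to ONECUT1 was 6.85 points away.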

How the data were processed

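ATAC-seq data of 16 samples were read as 4 deposited region lists, 1 per group, with samples grouped by their titles. Libraries followed the Omni-ATAC protocol per the labels. The submitters' processing notes name Bowtie2 2.2.6, MACS2 2.1.1.20160309 and DiffBind and the builds hg38 and mm10, without a role. How replicates were combined, the calling threshold and any shift of reads to the insertion site are not given in the sources used here. The deposited score of each region has no stated scale, so it was converted to a percentile within its own list (average rank for ties). The depth is unknown.

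Loci came from GENCODE release 44 (human) and release M21 (mouse). All regions ended inside the chromosomes of these builds. Coordinates are 1-based. Regions overlapping by 1 bp were shared, and changes pair each region with its longest overlap, second list minus first. Motifs were searched in the reference genomes. Overlap code was tested on simulated data with Python 3.11.15, numpy 2.4.6, pandas 2.3.3 and scipy 1.17.1. No test across samples was possible.

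The members and lists were chosen with earlier results of these data known. Regions were named by rule: the strongest start-site region of each gene and list, the 3 strongest one-list and distal regions of each list, and the 3 largest falls and rises of each pair ranked among shared regions. Other regions named were chosen after their values were seen, as were the 6 sequences among the regions named.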

Additional observations from a re-analysis of the deposited data

How the results depend on the processing

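No paired analysis was possible because 1 list stands for the 4 replicates of each group, and for the same reason no replicate could be left out. Counts of regions in 1 list moved with the window. With 10 kb on each side they were 9 of 45 control-only, 2 of 38 KO-only, 2 of 20 tumor-only and 13 of 32 mets-only regions. That mets-only share, 40.6% (Wilson interval 25.5 to 57.7), lay above the 17.8% of mets regions within 10 kb of any coding gene. The same background was 22.8% for control-only, 6.40% for KO-only and 8.37% for tumor-only regions. With 100 kb the windows held more regions, and 10 of 116 were KO-only (8.62%) and 8 of 94 tumor-only (8.51%). With 50 kb these shares were 5.71% and 8.06%. Keeping the upper 75% of each list left 13 of 65 control-only (20%), 2 of 55 KO-only (3.64%) and 10 of 52 mets-only regions (19.2%). The upper 50% left 9 of 40 (22.5%), 1 of 33 (3.03%) and 10 of 33 (30.3%). With lists cut to equal size the counts were 12 of 75 control-only (16%), 7 of 70 KO-only (10%), 8 of 62 tumor-only (12.9%) and 9 of 65 mets-only (13.8%). The excess of control-only over KO-only and of mets-only over tumor-only regions thus shrank. Whole-list shares at the 100 kb, upper 75%, upper 50% and equal-size settings are not given here. A gap of up to 500 bp left 3 of 62 tumor-only regions (4.84%). Without the BHLHA15 locus 2 of 63 were KO-only (3.17%). This last alternative, each locus left out in turn, was chosen after seeing the data. Over it, counts ranged from 15 to 20 control-only, 2 to 4 KO-only, 4 to 5 tumor-only and 15 to 20 mets-only. The median change from control to HNF4G-KO turned from -1.69 to 3.55 when ranked among shared regions and was -4.08 with 10 kb and with 100 kb. From primary tumor to mets it was 0.90 among shared regions and 11.1 with 10 kb, against 5.21. In the upper 50% of the lists start-site regions were found for 4 genes in control, 5 in HNF4G-KO and 3 in the primary tumor. The cause was not tested in any of these.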
